A study of Mus musculus with 4 samples.

Results

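SMAD4 binding between genes but close to them was examined in mouse alveolar macrophages (AMs). Of 10964 regions that carried a SMAD4 peak in both immunoprecipitated libraries, 1143 (10.4%) lay in intergenic sequence within 10 kb of a transcription start site (TSS), and these are called proximal intergenic regions or members here. Overlapping peaks of the 2 libraries (by at least 1 bp) were merged into 1 interval to give a shared region. Its midpoint had to lie outside every curated RefSeq transcript of mm10, outside promoters (1000 bp before to 100 bp after a TSS) and outside gene ends (100 bp before to 1000 bp after the last base). Beyond the peak calls in both libraries, no binding strength entered this choice. The series held 4 libraries, 2 immunoprecipitated with SMAD4 antibodies and 2 inputs, all from AMs lavaged and sorted from untreated wild-type C57BL/6J mice aged 9 weeks. Peaks were called in each immunoprecipitate against input by HT-ChIPmentation, in which a transposase cuts and tags the chromatin while it is still bound to the antibody beads. The inputs entered only as the control level under each peak. The sources used here do not say whether the replicates came from separate animals or pools, so the spread between them may be technical, and peak lists carry no expression against which the cell type label could be checked.

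SMAD4 is the shared partner of the receptor-activated SMADs. TGFβ and bone morphogenetic protein (BMP) receptors phosphorylate these partners, the complex enters the nucleus, and it binds short GTCT-type and GC-rich elements weakly, usually beside factors that already mark the enhancers of the cell. In AMs, TGFβ acts with GM-CSF to establish and hold the identity of the cell, and PU.1 and C/EBP factors are the main lineage factors on macrophage enhancers. Intergenic sequence just outside a promoter holds many such enhancers, although the nearest gene need not be the gene that an enhancer controls.

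The summit sequences of the 4 strongest members show what SMAD4-bound DNA near genes looked like in these libraries. Strength was the lower of a region's 2 percentile ranks of fold enrichment, 1 in each replicate. Each line gives 121 bases of mm10 around the mean summit, named by the gene with the nearest TSS, and capitals mark matches to the strings that were counted at summits.
Lyz1, chr10:117301930-117302050, + strand: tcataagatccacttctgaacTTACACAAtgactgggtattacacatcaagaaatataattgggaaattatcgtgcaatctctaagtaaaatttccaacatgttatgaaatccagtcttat
Chil3, chr3:106172677-106172797, + strand: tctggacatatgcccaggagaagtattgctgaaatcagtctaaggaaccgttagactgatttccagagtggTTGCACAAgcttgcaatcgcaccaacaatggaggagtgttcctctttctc
4930430J02Rik, chr9:57384772-57384892, + strand: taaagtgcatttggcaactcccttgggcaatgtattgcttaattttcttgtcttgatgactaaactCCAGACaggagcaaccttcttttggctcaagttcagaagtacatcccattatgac
Lpin1, chr12:16620419-16620539, + strand: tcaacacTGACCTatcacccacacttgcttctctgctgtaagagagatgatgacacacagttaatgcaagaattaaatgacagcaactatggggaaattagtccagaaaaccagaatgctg
The Lyz1 and Chil3 summits held a C/EBP string, TTACACAA and TTGCACAA. In the window nearest to 4930430J02Rik the capitals mark the SMAD string GTCTGG on the other strand, and in the Lpin1 window a nuclear receptor half-site.

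The next sequences are the strongest members with a string within 25 bp of the summit, 1 for each string that was more frequent at summits than in flanks (Chil3, above, is the member for C/EBP).
Ndc1, chr4:107364202-107364322, + strand: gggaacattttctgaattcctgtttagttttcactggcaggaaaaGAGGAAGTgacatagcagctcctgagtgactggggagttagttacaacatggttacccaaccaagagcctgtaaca
Homer1, chr13:93301029-93301149, + strand: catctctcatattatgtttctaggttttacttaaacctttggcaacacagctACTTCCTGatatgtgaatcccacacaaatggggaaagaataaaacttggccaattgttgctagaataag
Ttc27, chr17:74710988-74711108, + strand: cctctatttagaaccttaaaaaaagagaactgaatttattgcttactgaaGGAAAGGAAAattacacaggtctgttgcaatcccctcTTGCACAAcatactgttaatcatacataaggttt
Mmd, chr11:90240788-90240908, + strand: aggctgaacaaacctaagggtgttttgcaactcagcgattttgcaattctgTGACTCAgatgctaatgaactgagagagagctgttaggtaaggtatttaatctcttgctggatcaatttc
Mir6367, chr16:91522621-91522741, + strand: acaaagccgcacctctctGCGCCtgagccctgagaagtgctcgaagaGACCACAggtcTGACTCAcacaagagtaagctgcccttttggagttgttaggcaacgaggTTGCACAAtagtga
Fcrla, chr1:170936595-170936715, + strand: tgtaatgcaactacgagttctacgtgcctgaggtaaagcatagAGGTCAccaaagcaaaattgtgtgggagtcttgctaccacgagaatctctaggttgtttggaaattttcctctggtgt
Ndc1 carried the PU.1 string, Homer1 the ELF5-type ETS string, Ttc27 an ETS-IRF composite with a C/EBP string beside it, Mmd the AP-1 string, and Fcrla a nuclear receptor half-site. The member nearest to the microRNA gene Mir6367 held RUNX, AP-1 and C/EBP strings and a GC-rich SMAD string within the printed window.

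The strongest member lay 9111 bp upstream of Lyz1 (chr10:117301315-117302642). Lyz1 and its neighbour Lyz2 encode lysozyme, a bactericidal enzyme of macrophages, and the next gene TSS was that of Lyz2 at 19707 bp. Its fold enrichment, which is the fragment pileup at the summit over the control level with 1 added to each, was 54.0 in replicate 1 and 96.1 in replicate 2. These folds rested on 180 and 212 fragments. By fold this member ranked first of all shared regions in both replicates. By fragments other shared regions were higher, with up to 374 in replicate 1 and 351 in replicate 2. The Chil3 gene, which encodes a chitinase-like protein abundant in AMs, had 2 members. The one 5218 bp upstream (chr3:106172257-106173307) had folds of 45.8 and 65.4 on 140 and 144 fragments, and the one 3023 bp upstream (chr3:106169976-106171198) had folds of 29.1 and 44.7 on 89 and 99 fragments. Of the summit window (100 bp each side) of the first, 92.5% was soft-masked as repeat in the genome sequence. Chil3 also had a shared region at its promoter.

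The member 9498 bp upstream of Lpin1, a phosphatidate phosphatase of triglyceride synthesis, had folds of 37.6 and 51.9. Those near 4930430J02Rik, Rnf149, Cbwd1, Srd5a3 and Retn had folds of 29.6 to 40.6 in replicate 1 and 49.6 to 54.6 in replicate 2. Retn encodes the secreted protein resistin, and Rnf149 encodes an E3 ubiquitin ligase. Within each replicate the ranks of the 10 strongest members lay between the percentiles 99.1 and 100 of all shared regions.

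Members were bound about as strongly as shared regions at large. Their median fold was 6.82 in replicate 1 (the middle 50% from 5.20 to 9.75) and 9.93 in replicate 2 (from 7.22 to 14.9), beside 6.82 and 9.48 over all shared regions. The median summit carried 21 fragments in replicate 1 and 22 in replicate 2, so that the counting error of a typical fold is large and small differences between single members cannot be resolved. A fold of at least 10 in both replicates was reached by 268 members (23.4%), against 23.3% of all shared regions, which is the background share. Over members the folds of the replicates correlated with a Spearman rho of 0.804 and, on the log2 scale, a Pearson r of 0.855. These are correlations across regions that share both libraries, not across independent samples, and the values over all shared regions were 0.782 and 0.842. The fold was higher in replicate 2 at 1029 members (90.0%), beside 87.2% of all shared regions. The control level most often found under peaks was 1.22 fragments in replicate 2 and 2.08 in replicate 1. Its part in this difference was not tested. Members were 445 bp wide at the median, and the summits of the replicates lay 49 bp apart at the median.

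**Figure D1:**
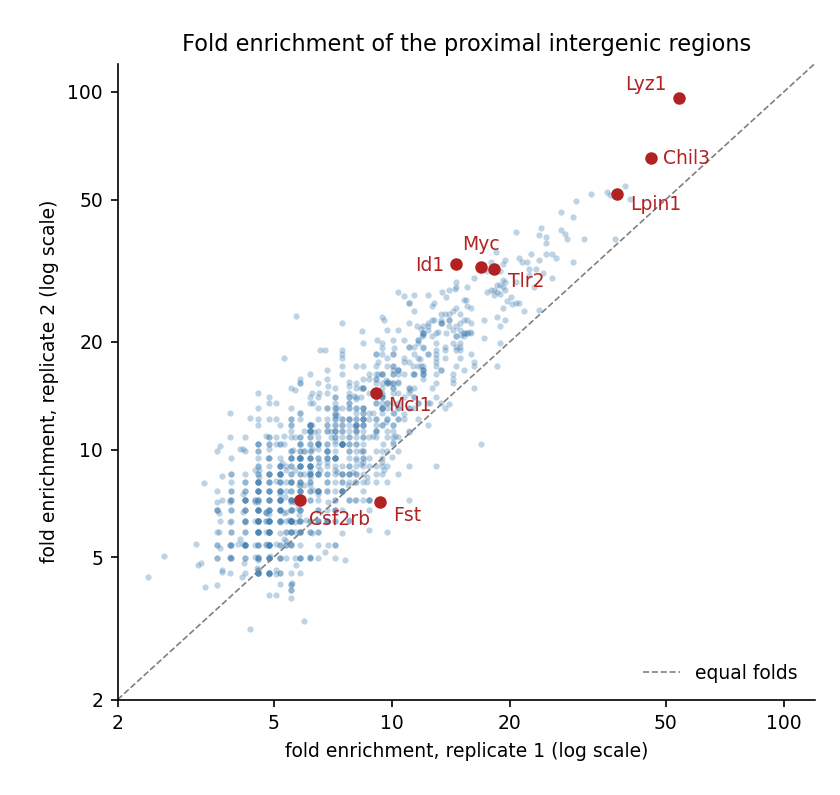
Fold enrichment of each of the 1143 members in replicate 1 (horizontal axis) and replicate 2 (vertical axis), both on a log scale, with 9 named members in red and the line of equal folds dashed. Most points lie above the dashed line, the Lyz1 member is the highest on both axes, and the Fst member lies below the dashed line.

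Peaks of this position class were found in both replicates in a larger share than peaks at large, without a test of that difference. Of 1527 replicate 1 peaks that met the position rule, 1191 (78.0%, exact 95% binomial interval 75.8 to 80.1) lay in a shared region, beside 69.4% of all replicate 1 peaks. Of 1907 such replicate 2 peaks, 1184 (62.1%, 59.9 to 64.3) did, beside 59.2% of all replicate 2 peaks. Peaks with a partner were the stronger ones, with a median fold of 6.56 against 4.55 for those without in replicate 1, and of 9.48 against 5.41 in replicate 2.

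Upstream of genes, SMAD4 regions became sparser with distance from the TSS. Over both sides, proximal intergenic sequence held 6.996 members per Mb that met the position rule (exact 95% Poisson interval 6.60 to 7.41), beside 4.25 shared regions per Mb at 10 to 100 kb (4.09 to 4.42) and 0.870 per Mb beyond 100 kb (0.801 to 0.942). The ratio of the first to the second was 1.64 (95% interval 1.53 to 1.76). Within the 10 kb, the density was 9.38 per Mb in the bin from 1 to 2 kb (8.03 to 10.9) and 6.42 per Mb in the bin from 9 to 10 kb (5.25 to 7.76). These bins pool both sides, and their intervals do not overlap. Of their sequence, 0.412 of 18.4 Mb and 4.27 of 16.5 Mb was downstream. Upstream alone, the bins held 9.48 per Mb (8.12 to 11.02) and 7.43 per Mb (5.98 to 9.12), with intervals that overlap. Over wider upstream spans the density was 8.26 per Mb at 1 to 5 kb (7.58 to 8.97) and 6.94 at 5 to 10 kb (6.32 to 7.59). It was 5.99 at 10 to 20 kb (5.52 to 6.49) and 4.47 at 20 to 50 kb (4.16 to 4.81). The decline within 50 kb was on the upstream side. Downstream, the density was 3.46 per Mb at 1 to 5 kb (2.33 to 4.94), 4.496 at 5 to 10 kb (3.62 to 5.53), 5.04 at 10 to 20 kb (4.38 to 5.77) and 4.62 at 20 to 50 kb (4.21 to 5.07). The decline did not extend to strength, since the median folds of the bins lay between 6.22 and 7.27 in replicate 1 and between 9.02 and 10.8 in replicate 2. The intervals cover counting error only, and eligible sequence includes repeats in which reads cannot be placed.

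Most members lay upstream. Of the 1143, 1023 (89.5%, 87.6 to 91.2) were upstream of the nearest TSS, while 82.4% of the eligible sequence within 10 kb was upstream. A position downstream of its nearest TSS and outside the gene requires a short gene, so little sequence is eligible there. The density was 7.60 per Mb upstream (7.14 to 8.08) and 4.18 per Mb downstream (3.47 to 5.002). At 10 to 100 kb the corresponding densities were 4.37 (4.17 to 4.58) and 4.06 (3.81 to 4.33). Upstream and downstream members had equal median folds of 9.93 in replicate 2, and medians of 6.82 and 6.92 in replicate 1. Distances ran from 1013 to 9982 bp with a median of 4917 bp. The farthest members lay upstream of Ctla4 (9982 bp, folds 5.85 and 12.6), a T cell inhibitory receptor gene, and of Peli1 (9974 bp, folds 14.6 and 22.2), a ubiquitin ligase gene. The nearest regions past the limit lay at 10010 bp from AI839979 (folds 4.22 and 7.01) and at 10036 bp from Elovl2 (6.17 and 8.12).

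**Figure D2:**
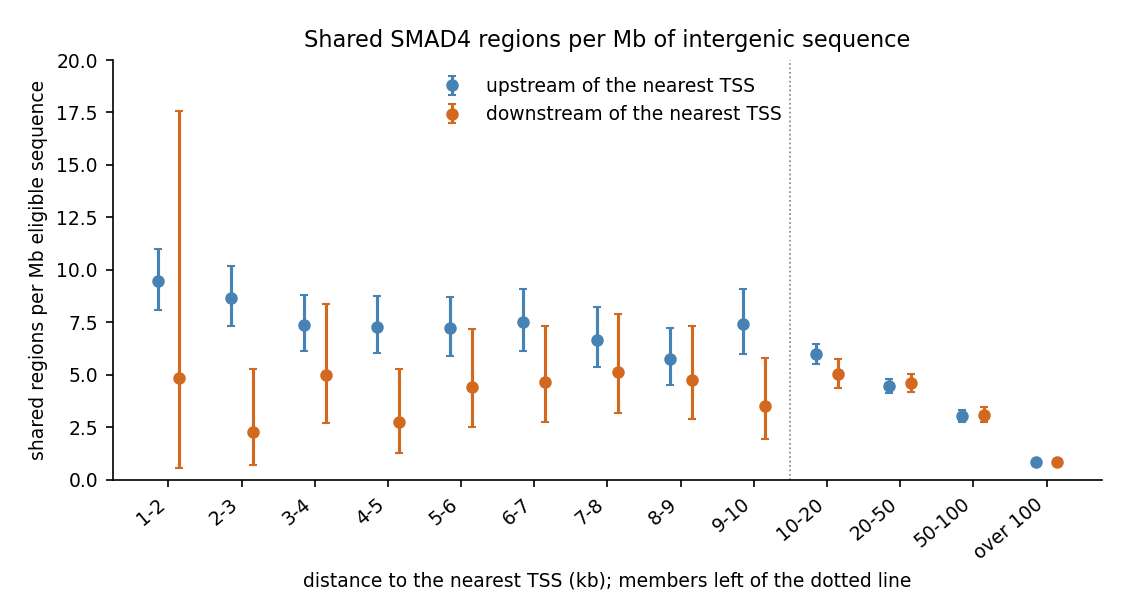
Shared regions per Mb of eligible intergenic sequence by distance to the nearest TSS (horizontal axis, kb), upstream in blue and downstream in orange, with exact 95% Poisson intervals as bars. The bins left of the dotted line hold the members. Upstream density is highest at 1 to 2 kb with 9.48 per Mb, and both sides are at about 0.870 per Mb beyond 100 kb.

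C/EBP, ETS, AP-1 and RUNX strings were concentrated under SMAD4 summits, whereas none of the 3 SMAD strings passed the test over members. Either strand could match, within 100 bp of the summit or within a flank window of equal size centred 1 kb away, on the side away from the nearest TSS. The C/EBP string (TT, a purine, a pyrimidine, a purine, a pyrimidine, AA) occurred in 255 summit windows (22.3%, 19.9 to 24.8) and in 65 flank windows (5.69%, 4.42 to 7.19), a ratio of 3.92. By the exact 2-sided McNemar test with Benjamini-Hochberg adjustment over 17 strings, the adjusted p was 3.38e-30. C/EBP proteins are leucine zipper factors of the myeloid lineage.

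The pair of ETS strings was scarce in flanks. The PU.1 string GAGGAAGT was held by 7.44% of summits, against 1.40% of flank windows (ratio 5.31), and the ELF5-type string CAGGAAGT by 6.82% against 1.22% (ratio 5.57). PU.1, encoded by Spi1, is the ETS factor that defines macrophages, and ELF5-type strings are read by other ETS proteins as well. The composite of an ETS core and an IRF core followed with 4.20% and 1.66% (ratio 2.53), and its call was lost against flanks 5 kb away (ratio 1.66, adjusted p 0.0836 by the exact test). The AP-1 string TGACTCA was found in 9.27% and 4.37% (ratio 2.12), and the RUNX string (TGTGGTT or TGTGGTC) in 16.5% and 9.19% (ratio 1.80). Adjusted p values of these 5 strings by the same exact test lay between 6.99e-12 and 0.00120. The nuclear receptor half-site AGGTCA, bound by RXR partners and other receptors, differed least, with 16.9% and 12.9% (ratio 1.31, adjusted p 0.0176 by the exact test), and it lost its call in 4 of 8 alternative settings, among them leaving out replicate 2 (ratio 1.04).

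Over members the SMAD strings did not pass. GTCTGG was held by 11.1% of summits (9.35 to 13.1) against 9.54% of flank windows (7.90 to 11.4), with an adjusted p of 0.433 by the exact test. Its ratio was 1.35 over members with a fold of at least 5 in both replicates (adjusted p 0.0800 by the exact test). Against flanks toward the TSS it was 0.992. The GC-rich string GGCGC occurred in 4.46% and 4.64%, and the palindrome GTCTAGAC in 6 summit windows and 2 flanks (ratio 3, adjusted p 0.447 by the exact test), too few for a firm comparison. The strings of STAT5 (TTCNNNGAA, 8.14% and 6.82%), which acts downstream of GM-CSF, and of RBPJ (GTGGGAA, 3.76% and 4.02%), which acts downstream of Notch, also did not pass, nor did those of IRF, E-box (CACGTG), CTCF and the GC box (GGGCGG). The DR1 string, a pair of half-sites of the AGGTCA type, stood for the element of PPARγ and RXR and was matched without mismatches. It was found in 0 of 1143 summit windows and 2 flanks. For exact matches to this string, a count of 0 allows a share of up to 0.262% by the rule of 3 counts. By the exact 95% binomial interval used for the other shares, the limit is 0.322%. Elements with mismatches were not counted. The paper lists PPAR and RXR motifs among those enriched in its SMAD4 peaks, which this count cannot test. It also reports enrichment there of motifs for PU.1, C/EBP, ELF5 and bHLHE41 and of one for SMAD4 itself. That search used HOMER motifs on the paper's own peak set, so exact strings over members do not test it. In all, 7 of 17 strings (41.2%) were called more frequent at summits over members, and 12 of 17 (70.6%) over all 10964 shared regions, a far larger sample. Among the 12 were the SMAD palindrome (0.465% of summits and 0.182% of flanks, ratio 2.55, adjusted p 0.000469 by the exact test) and the GC-rich SMAD string (5.24% and 4.53%, ratio 1.16, adjusted p 0.0209 by the exact test), but not GTCTGG (ratio 1.07). A string match is a description of sequence, and no match here tells anything about the factor.

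**Figure D3:**
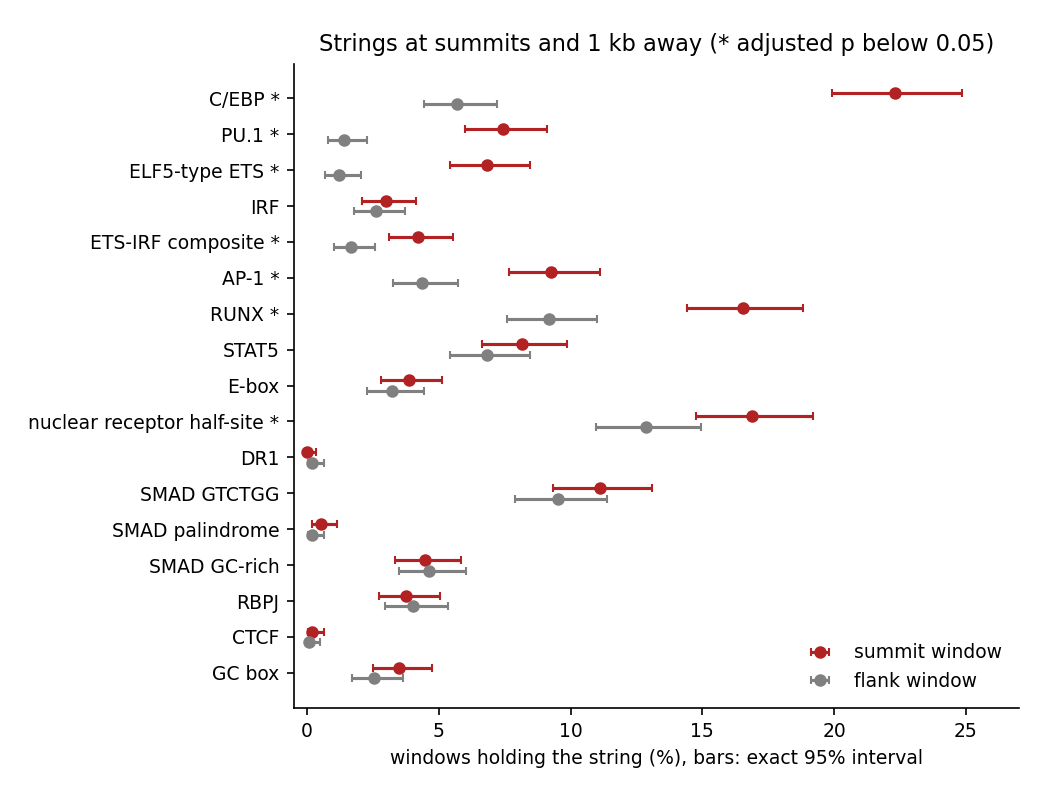
Share of summit windows (red) and flank windows (grey) of the 1143 members that hold each of 17 strings, in percent, with exact 95% binomial intervals as bars; an asterisk marks an adjusted p below 0.05 by the exact McNemar test. C/EBP stands farthest from its flank, at 22.3% against 5.69%, and the SMAD strings overlap theirs.

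Around the summit the strings formed peaks of their own. C/EBP strings occurred 113 times within 25 bp of the summit, and their density there was 8.44 times that found beyond 300 bp. The ratio was 6.32 for the ELF5-type ETS string, 5.01 for PU.1, 2.84 for AP-1 and 2.46 for RUNX, whereas it was 1.11 for GTCTGG, 1.04 for STAT5 and 0.941 for the GC-rich SMAD string. It was 1.86 for the E-box and 2.61 for the SMAD palindrome, the latter from 2 occurrences within 25 bp. Base composition did not differ much between the windows, with a GC content of 44.0% ± 6.002 (SD, n = 1143) at summits and 44.4% ± 6.75 in flanks. Repeats did differ, with 15.2% of summit sequence and 34.9% of flank sequence soft-masked. Over the 755 members in which neither window was masked over more than 50% of its length, 6 of the 7 strings were still called, and the nuclear receptor half-site was not.

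**Figure D4:**
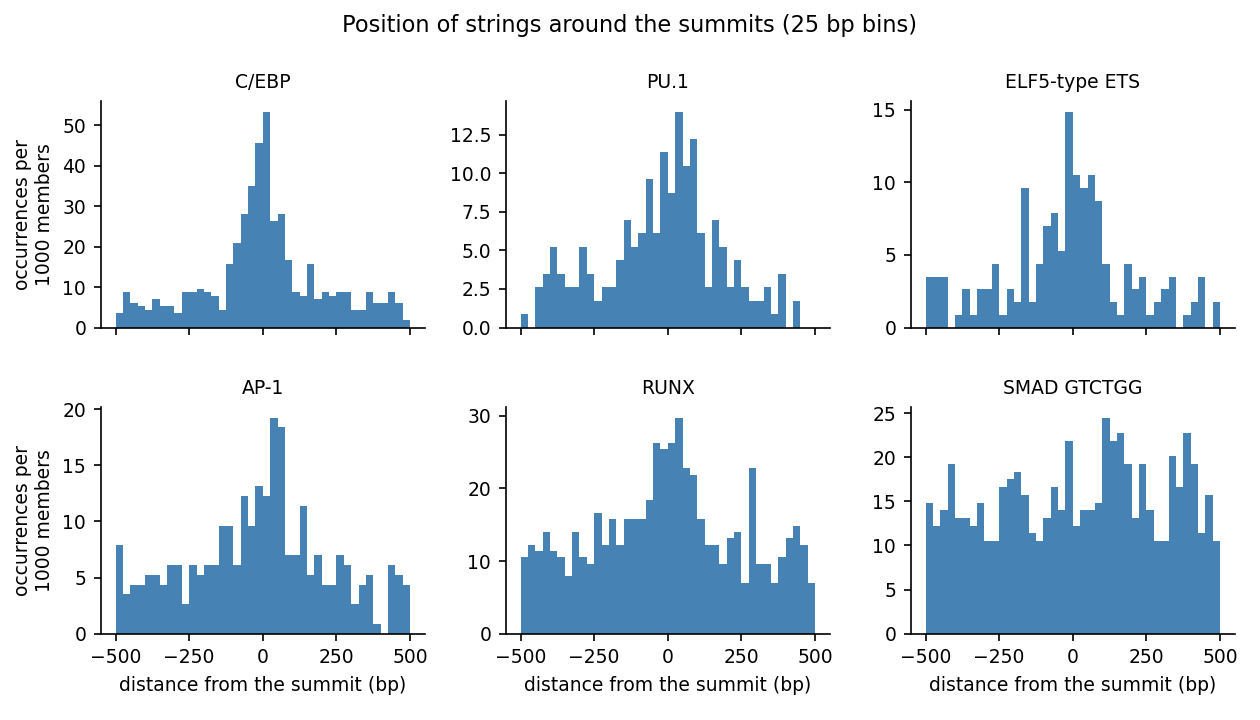
Occurrences per 1000 members of 6 strings in 25 bp bins by distance from the summit (bp), each panel with its own vertical scale from 0. C/EBP reaches 53.4 per 1000 members in the bin from 0 to 25 bp, and GTCTGG shows no such rise.

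The C/EBP share went with binding strength. Over 4 groups of equal size, from the weakest to the strongest members, it was 17.5% (13.3 to 22.4), 17.1% (13.0 to 22.0), 23.2% (18.4 to 28.5) and 31.5% (26.1 to 37.2). The AP-1 share ran the other way over a narrow range, from 10.1% (6.90 to 14.2) to 8.39% (5.45 to 12.2), with intervals that overlap throughout. RUNX stood at 15.0%, 16.1%, 14.4% and 20.6%, and the SMAD string GTCTGG at 8.74%, 10.8%, 12.3% and 12.6%. These shares are descriptive, and stronger members were also wider, with medians of 286 and 674 bp in the weakest and the strongest group, although the searched window was the same. Of the 5 strings C/EBP, PU.1, ELF5-type ETS, AP-1 and RUNX, 453 members held 1, 110 held 2, 12 held 3 and 1 held 4. The 567 members (49.6%) without any of them had median folds of 6.17 and 9.02, against 7.46 and 10.8 in members with 1. Pairs were counted beside the product of their shares, without a test. C/EBP with RUNX was held by 41 members where the product gives 42.2, C/EBP with ELF5-type ETS by 12 (17.4), PU.1 with ELF5-type ETS by 3 (5.80), and PU.1 with AP-1 by 11 (7.88).

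The sequence under proximal intergenic summits did not differ detectably from that under other SMAD4 regions. Members were compared with the 2691 shared intergenic regions at 10 to 100 kb and with the 1834 shared intronic regions within 10 kb. None of the 34 comparisons (0%) passed by the 2-sided Fisher exact test with Benjamini-Hochberg adjustment, and 3 had an unadjusted p below 0.05. The C/EBP share was 22.3% in members, 24.0% at 10 to 100 kb (difference -1.66 points, 95% interval -4.56 to 1.24) and 24.7% in introns (-2.39 points, -5.51 to 0.73). The nuclear receptor half-site was held by 16.9% of members and 13.1% of intronic regions (3.74 points, 1.08 to 6.41, adjusted p 0.169 by the exact test). The ELF5-type string was held by 6.82% and 4.58% (2.24 points, 0.50 to 3.99, adjusted p 0.169 by the exact test). The third was the DR1 string, with 0 of 1143 members and 11 of 2691 regions at 10 to 100 kb (adjusted p 0.464 by the exact test).

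Genes with a bound promoter were found more often next to members than next to intergenic regions farther away. The nearest gene had a shared region at its own promoter for 129 members (11.3%, 9.51 to 13.3) and for 218 of the 2691 regions at 10 to 100 kb (8.10%, 7.10 to 9.20), an odds ratio of 1.44 by the 2-sided Fisher exact test (p = 0.00206). Regions that share a nearest gene count separately in this test. The share was 11.6% for the 1834 intronic regions within 10 kb and 14.9% for all shared regions, which include those at promoters. Another shared region of any class lay within 10 kb of 550 members (48.1%), beside 44.5% of all shared regions.

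In all, 980 genes had a member at their nearest TSS, 844 of them protein-coding, which is 4.03% of the 20923 curated protein-coding genes. Of these genes 840 had 1 member, 118 had 2, 21 had 3 and 1 had 4. The gene with 4 was Mcl1, which encodes a BCL2-type survival protein of myeloid cells. Its members lay 2742, 4925, 7394 and 7951 bp upstream with folds of 7.80, 7.47, 5.85 and 9.10 in replicate 1 and 12.2, 19.0, 8.57 and 14.4 in replicate 2. Mmd, a gene named for monocyte to macrophage differentiation, had 3 members, of which the one at 8761 bp was the strongest (folds 27.9 and 38.8). The other 2 were weaker, with folds of 6.17 and 13.5 and of 5.52 and 4.21. The microRNA gene Mir34a had 3 members, with folds from 6.04 to 18.5 in replicate 1 and from 6.35 to 27.5 in replicate 2. Its strongest lay 7898 bp downstream. The next gene, Gpr157, had its TSS 11151 bp from that member.

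Gene panels were read by the nearest TSS. In the panel of AM identity genes 13 of 37 genes (35.1%) had a member, beside the 4.03% of all coding genes. A shared region of any class was assigned to 34 of the 37 (91.9%), and to 5452 of the 26089 curated genes. The high share in this panel was thus not particular to proximal intergenic regions. No test was made, since the panels were drawn up with results of these data known and were not matched for expression or gene density. Besides Lyz1 and Chil3, the panel held Atp6v0d2, a subunit of the proton pump of acid compartments, with a member 4631 bp upstream (folds 16.2 and 17.1), and Mmp8, a collagenase, at 1912 bp (10.7 and 12.6). The strongest shared region of Atp6v0d2 was not a member (fold of 23.4 in replicate 1). Mmp8 also had a shared region at its promoter, with a replicate 1 fold of 10.72, beside 10.74 at the member. At the low end were Cidec, a lipid droplet protein, with folds of 5.85 and 5.87, and the second Fabp1 member with 3.58 and 4.19. In the panel of other lineages 1 of 15 genes (6.67%) had a member, the airway secretoglobin Scgb1a1 (5.20 and 6.77). A shared region of any class was assigned to 5 of the 15 (33.3%). Scgb1a1 had 4 of them, 1 at its promoter, and its strongest was not a member (fold of 7.47 in replicate 1).

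Among macrophage transcription factors 10 of 57 genes (17.5%) had a member, and 39 of the 57 (68.4%) had a shared region of any class. The strongest lay 1693 bp upstream of Myc, a growth regulator (chr15:61983224-61984072), with folds of 16.9 and 32.5 on 51 and 71 fragments, and its summit window held a C/EBP string. The AP-1 genes Fos (5016 bp upstream, 13.1 and 21.3) and Fosl1 (3020 bp, 13.3 and 16.7) and the NF-κB gene Nfkb2 (3278 bp, 11.8 and 17.9) came next. Spi1, which encodes PU.1, had a member 1101 bp upstream with folds of 5.20 and 9.02, close to the promoter limit.

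In the TGFβ, BMP and SMAD panel 6 of 51 genes (11.8%) had a member, and 24 of the 51 (47.1%) had a shared region of any class. The strongest belonged to Id1, a classical BMP and SMAD target that inhibits helix-loop-helix factors (5425 bp downstream, folds 14.6 and 32.9 on 44 and 72 fragments). The receptor gene Tgfbr2 had a member 3029 bp upstream (12.3 and 21.7). Its summit window held C/EBP, STAT5 and nuclear receptor half-site strings. Weaker members belonged to Skil, a SMAD corepressor (6.17 and 9.02), to Fst, which encodes the activin antagonist follistatin (9.35 and 7.15), to Nrros, which anchors latent TGFβ (5.20 and 8.57), and to Tgfbi, a TGFβ-induced matrix protein (5.67 and 6.28). Fst ranked at the percentile 72.3 in replicate 1 and 27.1 in replicate 2. The strongest shared region of Skil was not a member (fold of 7.80 in replicate 1). In the panel of GM-CSF, STAT5 and Notch genes 2 of 22 (9.09%) had a member, and 9 (40.9%) had a shared region of any class. The 2 were Csf2rb (5.85 and 7.22), the signalling chain of the GM-CSF receptor, and Notch4 (5.20 and 7.54 at the stronger of 2). The strongest shared region of Csf2rb was not a member.

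Pattern recognition was the panel with the largest share, 14 of 33 genes (42.4%), and 25 of the 33 (75.8%) had a shared region of any class. Tlr2, a receptor for bacterial lipoproteins, had a member 3674 bp upstream with folds of 18.2 and 32.0 (55 and 70 fragments) and AP-1 and RUNX strings at the summit. It was 1 of 8 shared regions assigned to Tlr2, and the strongest of those, with a fold of 38.3 in replicate 1, was not a member. Tlr7, a receptor for single-stranded RNA, had a member 8200 bp upstream (20.1 and 26.6). Clec4n, which encodes Dectin-2 (13.0 and 18.05), and Tlr5, the flagellin receptor (11.7 and 20.3), followed. The co-receptor gene Cd14 (3.68 and 7.22) and Gsdmd, the pore former of pyroptosis (5.20 and 4.21), were at the low end.

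Cytokine and chemokine genes had a member in 13 of 40 cases (32.5%). Cxcr4, a receptor for the chemokine CXCL12, had the strongest, 5226 bp downstream of the TSS (folds 20.8 and 29.3), 1 of 9 shared regions of that gene. The neutrophil chemokine gene Cxcl2 had 2 members, with folds of 18.8 and 22.1 at 6249 bp and of 11.7 and 13.5 at 5192 bp upstream. The TSS of Cxcl1 lay 6405 bp from the first of these, nearly as close. Il1a, an alarm cytokine, had a member 4224 bp upstream (13.3 and 23.0) and Ccl3, a macrophage chemokine, one 9014 bp downstream (14.9 and 19.4).

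Genes of lipid handling, of the lysosome, of receptors, and of survival and apoptosis completed the panels. Of 44 lipid genes 9 (20.5%) had a member, among them Lpin1, the diacylglycerol acyltransferase gene Dgat2 (10.1 and 14.4), the scavenger receptor Msr1 (9.42 and 12.6) and the lipid droplet coat gene Plin2 (7.80 and 9.93). Of 35 lysosomal genes 8 (22.9%) had one, led by the proton pump subunit Atp6v0a1 (11.4 and 27.1), with the protease Ctsd (6.50 and 10.4), Grn (6.17 and 9.48) and Lamp2 (5.52 and 9.48) behind it. Of 28 genes in the panel of inhibitory and Fc receptors 8 (28.6%) had one. Trem1, which is an activating receptor and not an Fc receptor, stood at 10.4 and 15.3. The activating Fc receptor Fcgr4 stood at 9.10 and 17.1, Siglecg at 7.15 and 11.3 and Cd200r1 at 7.15 and 10.8. Of 26 survival genes 6 (23.1%) had one, with Gadd45g at 13.6 and 18.05, the BH3-only gene Pmaip1 at 7.47 and 8.57 and the kinase gene Pim3 at 5.85 and 10.4 beside Mcl1. At Plin2, Ctsd, Fcgr4, Pmaip1, Trem1 and Pim3 the strongest shared region was not a member. Its fold in replicate 1 was 30.2 at Plin2, 18.2 at Ctsd and 13.97 at Fcgr4. It was 12.02 at Pmaip1, 11.05 at Trem1 and 7.47 at Pim3. At the other genes named in this paragraph, the strongest shared region was a member. In 4 panels the median folds of the members were above those of all members (6.82 and 9.93) in both replicates. They were transcription factors (11.8 and 15.8), pattern recognition (8.45 and 15.1), AM identity (7.80 and 12.2), and survival and apoptosis (7.47 and 11.7).

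**Figure D5:**
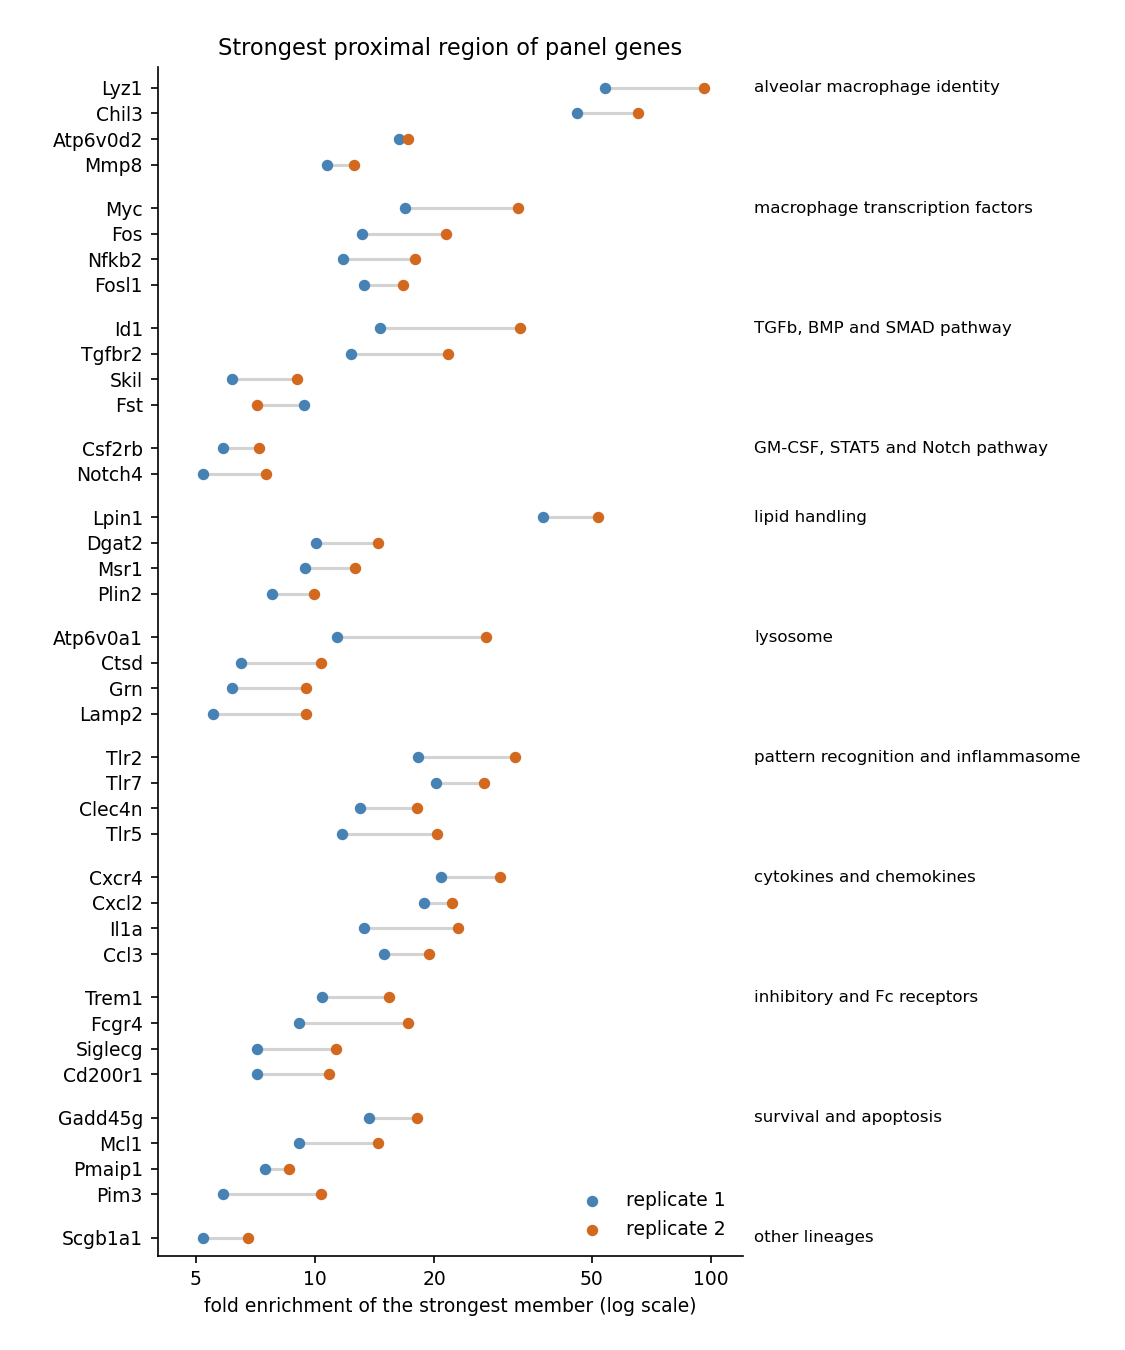
Fold enrichment (log scale) of the strongest member of up to 4 genes per panel in replicate 1 (blue) and replicate 2 (orange), joined by a grey line. Lyz1, Chil3 and Lpin1 lie farthest to the right, and Fst is the gene shown whose fold is higher in replicate 1.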

How the data were processed

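Per the labels and the study's methods, reads were trimmed (cutadapt) and aligned to mm10 (Bowtie2), and the authors removed duplicates, kept properly paired reads over a quality limit, and used MACS3 to call peaks in each SMAD4 library against input, with q-values of at most 0.05. Replicates were not pooled. The deposited peak lists (16369 and 19015 peaks) give for each peak a fold ratio at the summit, a -log10 p-value, a -log10 q-value and a score, which the authors' caller set at a multiple of the -log10 q-value. Total fragments per library are unknown. The fragment pileup and the control level were solved from fold and p-value, and the pileup was whole within 0.02 fragments at 100% of peaks.

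Shared regions were annotated with 45657 curated RefSeq transcripts of 26089 genes on 20 chromosomes (Python 3.11.15, pandas 2.3.3, scipy 1.17.1, pysam 0.24.0, samtools 1.23.1), and sequences were read from the RefSeq copy of the mm10 assembly. Replicate numbers follow accession order and pair nothing. Strings were compared by exact McNemar and Fisher exact tests with Benjamini-Hochberg adjustment and a threshold of 0.05, and the statistics were checked on simulated data. Named were the 10 strongest members, up to 4 genes per panel with the strongest members, up to 6 genes with the most members, the regions at the distance limit and the strongest member for each called string. 1 of these regions is not reported here. Further panel genes (Cidec, Fabp1, Spi1, Nrros, Tgfbi, Cd14 and Gsdmd) were named after their values were seen. Members and lists were chosen with earlier results of these data known. Alternatives covered overlap, q-value, fold, gene models, distance limits, windows, flanks and single libraries.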

Additional observations from a re-analysis of the deposited data

How the results depend on the processing

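The number of members moved by over 1.5 times under a distance limit of 5 kb (585), a limit of 20 kb (1942) and when all replicate 2 peaks of the class were taken (1907), and with either library left out it ranged from 1527 to 1907. The other 8 alternatives gave 816 to 1249 members. The ratio of the density within 10 kb to that at 10 to 100 kb was 2.06 instead of 1.64 when predicted transcripts were included, the rank correlation between replicates was 0.828 instead of 0.804 at 50% reciprocal overlap, the median of members over that of all shared regions in replicate 1 was 1.05 by fragments instead of 1 by fold, and the upstream share was 91.4% with protein-coding genes alone. The cause was not tested. Strings called at summits numbered 6 to 8, of the original 7 at least 6 each time, with the nuclear receptor half-site lost in 4 alternatives, the ETS-IRF composite lost against flanks 5 kb away (adjusted p 0.0836 by the exact McNemar test) and STAT5 gained with 200 bp each side (0.0130). Against flanks toward the TSS, the GC-rich SMAD string was less frequent at summits (ratio 0.55, adjusted p 0.000611). The comparison limited to windows under 50% masked was added after seeing the data. No comparison with other classes passed in any of 5 alternatives, Mantel-Haenszel tests over strata of strength included (smallest adjusted p from 0.0624 to 1), and the promoter odds ratio was 1.41 and 1.47 in its 2 alternatives. Ranked by the smaller fold, 8 of the 10 strongest members were the same. No paired analysis was possible because the labels carry no replicate numbers. With 21 to 22 fragments at the median summit, depth limits differences between single members, and the inputs were not analysed here as libraries of their own.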

Other observations

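The replicates ranked most members alike, with a median gap of 9.42 percentile points between the 2 ranks of a member and 866 members (75.8%) within 20 points. In 17 members the gap was over 50 points. The widest gaps, chosen after their values were seen, were at the members nearest to Ttc39c (folds 3.87 and 12.6), Gas7 (4.55 and 14.4) and Gm36229 (4.35 and 12.3), all stronger in replicate 2, and at H2-Ea, an MHC class II gene annotated by RefSeq as a transcribed pseudogene (9.75 and 5.87), which was stronger in replicate 1.

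Members nearest to noncoding genes were 125 with a lncRNA gene (10.9%, beside 13.5% of all shared regions) and 22 with a microRNA gene (1.92%, beside 2.79%). Of neighbouring members, 143 pairs lay within 5 kb of each other and the closest pair had midpoints 305 bp apart. No string of the 17 was found at 295 member summits (25.8%, beside 25.2% of all shared regions).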
